A study of Mus musculus with 24 samples.

Results

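The genes described are 9 genes of basement membrane adhesion: Itgb1, Itga3, Itga6, Itgb4, Col17a1, Dst, Lama3, Lama5 and Lamb3. They were chosen by symbol, as the integrin chain CD29 that served as a sort marker together with its partner chains, the hemidesmosome genes and laminin chains. The 9 genes had 23 of the 45101 probe sets on the arrays and made up 9 of the 13485 genes tested. Expression was measured on 24 Affymetrix arrays of mouse mammary cells, all from C57BL6/J mice. Tumour arrays came from 5 separate mammary adenocarcinomas (A to E) of Apc+/1572T mice, which carry 1 truncated copy of Apc, a negative regulator of Wnt signalling. Normal arrays came from 3 pools (F to H) of mammary glands of Apc+/+ mice, so a normal value is a mean over several animals. From each tumour and each pool, 3 populations of 10000 cells were sorted: CD29hiCD24+, the gate taken for stem cells, CD29+CD24+, taken for more differentiated cells, and Lin-, lineage-depleted cells with no further gate. This gives 5 tumour and 3 normal arrays in each population. The labels give no ages, and RNA went through 2 rounds of amplification.

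Epithelial cells rest on the basement membrane, a sheet of laminin, collagen IV, nidogen and perlecan. Laminins are trimers of an alpha, a beta and a gamma chain. Lama3 and Lamb3 encode the alpha and beta chains of laminin-332, which basal epithelial cells secrete, and Lama5 encodes the alpha chain of laminin-511, a more widespread form. Integrins are the receptors. Itgb1 encodes the beta1 chain (CD29), which pairs with alpha3 (Itga3) or alpha6 (Itga6) in focal contacts linked to actin, whereas alpha6 pairs with beta4 (Itgb4) in the hemidesmosome. There the transmembrane collagen XVII (Col17a1), dystonin (Dst, whose epithelial form is BP230) and plectin join the integrin to keratin filaments. In the mammary gland the basal, or myoepithelial, layer touches the basement membrane and makes hemidesmosomes, and most luminal cells do not touch it.

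Promoters are shown for 4 of the genes: Col17a1 and Lamb3, which had among the widest differences between the sorted populations of normal glands, Lama5, which ran the other way, and Dst, whose probe sets disagreed. Each runs from 250 bases before to 50 bases after a RefSeq transcript start on GRCm38.p6, 5' to 3' on the gene's strand. The table used held 9 promoters for 6 of the 9 genes; Itga6, Itgb4 and Lama3 had no entry. Capitals mark the letters of 4 motifs searched on both strands: TGANTCA (AP-1), GGGCGG (Sp1), CAGGTG (an E-box bound by Snail factors) and CTTTGA (TCF/LEF). These motifs do not overlap one another in letters.
Col17a1, chr19:47691993-47692292, minus strand: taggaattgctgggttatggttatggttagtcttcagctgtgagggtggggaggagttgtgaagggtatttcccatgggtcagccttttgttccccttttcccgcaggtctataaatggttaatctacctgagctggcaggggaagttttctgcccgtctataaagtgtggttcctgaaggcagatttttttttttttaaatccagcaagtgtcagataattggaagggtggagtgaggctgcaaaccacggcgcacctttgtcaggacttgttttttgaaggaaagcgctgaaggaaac
Lamb3 first start, chr1:193301744-193302043, plus strand: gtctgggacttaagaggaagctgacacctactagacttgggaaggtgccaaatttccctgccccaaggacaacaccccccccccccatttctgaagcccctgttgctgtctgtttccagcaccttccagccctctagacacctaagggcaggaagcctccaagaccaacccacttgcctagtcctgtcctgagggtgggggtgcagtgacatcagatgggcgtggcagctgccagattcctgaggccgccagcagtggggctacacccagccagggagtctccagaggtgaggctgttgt
Dst first start, chr1:34011345-34011644, plus strand: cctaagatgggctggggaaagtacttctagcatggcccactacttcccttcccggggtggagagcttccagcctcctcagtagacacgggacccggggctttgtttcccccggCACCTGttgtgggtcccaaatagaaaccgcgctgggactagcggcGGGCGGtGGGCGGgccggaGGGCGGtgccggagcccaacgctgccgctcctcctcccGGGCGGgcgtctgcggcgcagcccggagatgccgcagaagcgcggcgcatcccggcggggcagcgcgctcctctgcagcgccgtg
Dst second start, chr1:34160010-34160309, plus strand: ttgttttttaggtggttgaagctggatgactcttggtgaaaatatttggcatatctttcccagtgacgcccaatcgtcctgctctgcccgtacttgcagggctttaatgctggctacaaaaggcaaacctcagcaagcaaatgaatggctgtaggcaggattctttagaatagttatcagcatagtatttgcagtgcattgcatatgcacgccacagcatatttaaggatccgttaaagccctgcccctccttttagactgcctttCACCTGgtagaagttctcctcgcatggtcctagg
Lama5, chr2:180225810-180226109, minus strand: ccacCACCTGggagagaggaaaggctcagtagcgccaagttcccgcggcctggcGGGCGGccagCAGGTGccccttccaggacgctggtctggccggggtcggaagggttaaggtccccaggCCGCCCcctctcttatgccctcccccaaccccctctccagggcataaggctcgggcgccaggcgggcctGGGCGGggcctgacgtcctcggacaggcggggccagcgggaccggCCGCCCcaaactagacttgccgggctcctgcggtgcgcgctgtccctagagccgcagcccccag
The Col17a1 window and this Lamb3 window held none of the 4 motifs, and a second Lamb3 start a little downstream held 2 Snail E-boxes. The first Dst window held 4 Sp1 motifs and 1 E-box and was rich in G and C (70.3%), while the second held 1 E-box only (46.0% G and C; the median of all promoters was 52.7%). Lama5 had 4 Sp1 motifs and 2 E-boxes. Across the 9 promoters, 5 held an Sp1 motif, against 35.7% of all 32851 promoters of this length. The E-box also stood in 5 of 9, against 20.2%. AP-1 was found in 1 of 9 (an Itga3 start), against 7.81%, and TCF/LEF in 0 of 9, against 16%. These matches describe letters in a window and say nothing of binding.

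Values are log2 signals as deposited, 1 probe set per gene, so a difference of 1 means 2-fold. The low band is taken as signals of 2.83 or less (40% of all values), where a probe set is hard to tell from background. Tests are limma fits over all 24 arrays with Benjamini-Hochberg adjustment over the 13485 genes, called at an adjusted p under 0.05. The ± after a difference gives its standard error, unless SD is written. Signals of different probe sets are not on a common scale, so levels are compared between groups and not between genes. A difference in a sorted population may reflect fewer cells that make an RNA or less RNA per cell, and these cannot be told apart here.

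The sorts left different mixtures. The mean of 8 basal marker genes ran from 9.23 to 11.0 in tumour and from 12.9 to 13.2 in normal CD29hiCD24+ arrays. It ran from 8.73 to 9.15 in tumour and from 3.27 to 3.58 in normal CD29+CD24+ arrays, where Krt17, Trp63, Cnn1 and Oxtr lay in the low band. Normal CD29hiCD24+ arrays also carried endothelial signal (means of 7 markers from 6.45 to 9.31, against 2.55 to 2.76 in normal CD29+CD24+ arrays). Tumour CD29hiCD24+ arrays had 2.82 to 3.66 for the same markers, with Cdh5, Cldn5 and Kdr in the low band. The CD29hiCD24+ array of pool F stood apart, with the highest endothelial mean of its group (9.31) and a leukocyte mean of 7.38 against 2.80 and 2.93 in the other pools. Actin 3' minus 5' signal, which rises as RNA is shortened, was 2.03 ± 0.30 in tumour CD29hiCD24+ and 2.06 ± 0.36 in tumour CD29+CD24+ arrays (SD, n = 5 each), against 2.53 ± 0.35 and 1.61 ± 0.21 in the same normal populations (SD, n = 3 each). Per the labels, numbers in the sample descriptions fall in ranges, and of the tumours only E shares the range of the pools. What these numbers stand for is not given.

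**Figure D1:**
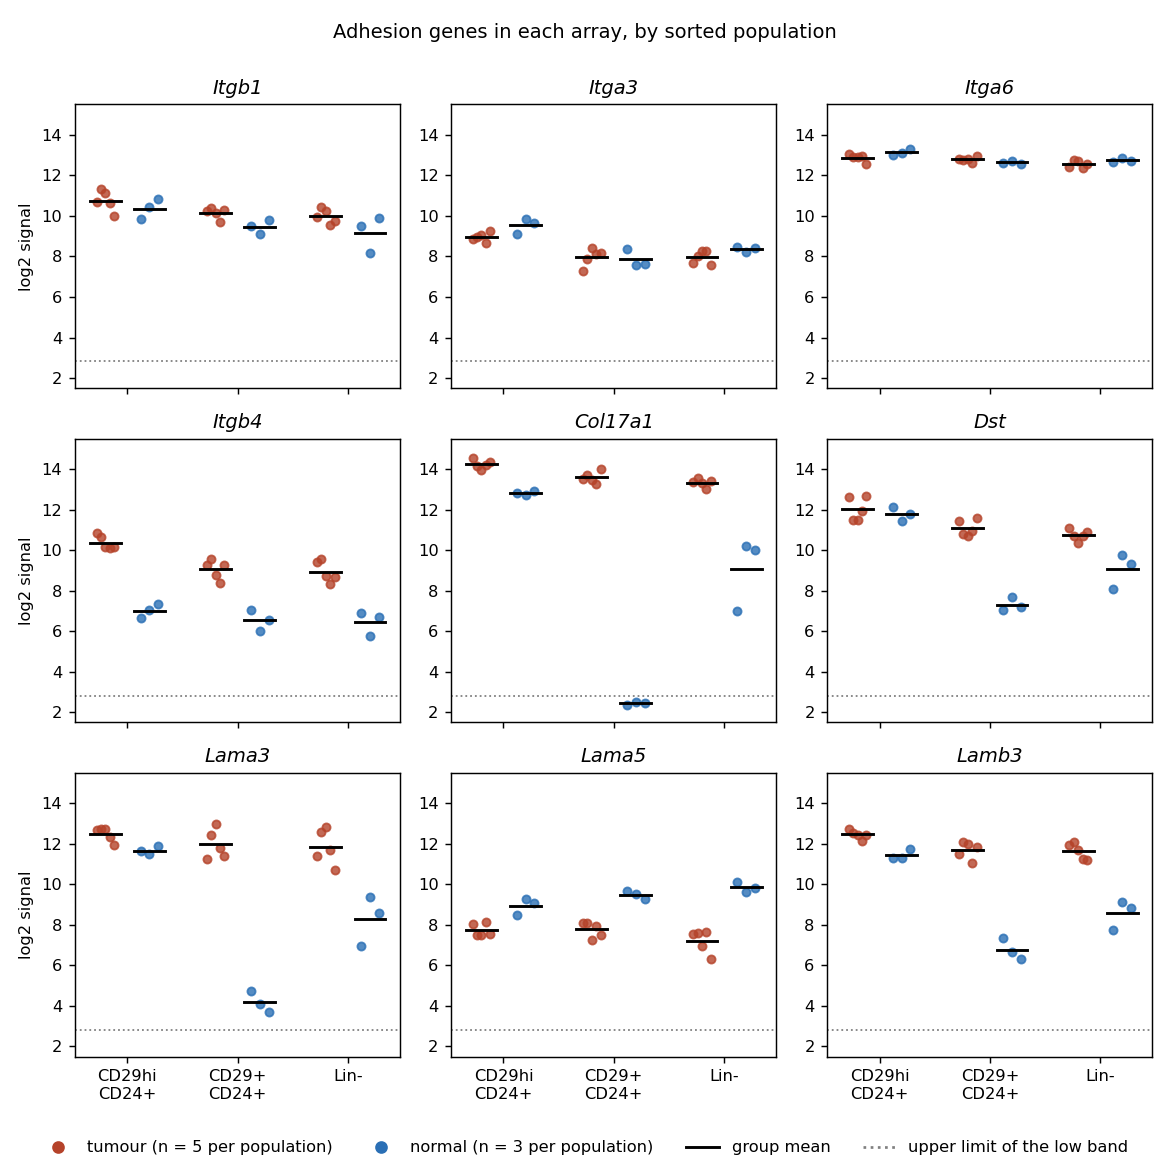
Log2 signal (y axis) of the 9 genes in each of the 24 arrays, by population (x axis), with tumour arrays left of normal arrays; points are arrays and bars are group means. Col17a1, Lama3, Lamb3 and Dst (by probe set 1421117_at) are high in all tumour populations and in normal CD29hiCD24+ arrays. They are low in normal CD29+CD24+ arrays, where Col17a1 sits in the low band. By 1423626_at and 1421276_a_at Dst is instead lower in tumour than in normal arrays of each population.

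Itgb1 (chr8:128685654-128733579) encodes CD29, a protein on which the gates were set. The arrays measure its RNA and not the surface protein, so they do not test the sort. In tumours Itgb1 had 10.70, 11.32, 11.16, 10.63 and 9.98 in CD29hiCD24+ arrays A to E, against 10.23, 10.39, 10.15, 9.72 and 10.31 in CD29+CD24+ arrays. Tumour E alone had the lower signal in the CD29hiCD24+ gate. In normal glands it had 9.83, 10.42 and 10.84 in CD29hiCD24+ arrays F to H, against 9.50, 9.11 and 9.78 in CD29+CD24+ arrays. Here every CD29hiCD24+ array lay above every CD29+CD24+ array. The difference between these gates was 0.60 ± 0.29 in tumours (adjusted p = 0.268) and 0.90 ± 0.38 in normal glands (adjusted p = 0.0588). With the tumour or pool as a block, limma called the normal difference (adjusted p = 0.0165). It was 1.16 without the CD29hiCD24+ array of pool F (adjusted p = 0.0296) and 1.88 with actin 3' minus 5' signal as a covariate (2.27e-05), a signal that differed between these normal gates. Against Lin- cells, normal CD29hiCD24+ cells had 1.18 ± 0.38 more Itgb1 signal (adjusted p = 0.0170), with overlapping groups. This call was lost without pool G (adjusted p = 0.225) and when only these groups were fitted. Tumour CD29hiCD24+ cells had 0.77 ± 0.29 more than tumour Lin- cells (adjusted p = 0.110, and 0.0265 with the block). Tumour and normal arrays overlapped in each population. Tumour minus normal differences were 0.40 ± 0.34 in CD29hiCD24+ (adjusted p = 0.390), 0.69 ± 0.34 in CD29+CD24+ (0.108) and 0.80 ± 0.34 in Lin- cells (0.0663), none of them called. Itgb1 was called higher in tumour CD29+CD24+ cells with the actin covariate (1.18, adjusted p = 0.000180) and when only these groups were fitted (0.0249). In Lin- cells it was called with the actin covariate (0.76, adjusted p = 0.00438), after quantile normalisation (0.90, 0.0385) and without pool H (1.15, 0.0190).

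Itga3 (chr11:95044475-95076844), the alpha3 chain of the laminin receptor alpha3beta1, followed the CD29hi gate in both tissues. In tumours it had 8.85, 8.98, 9.08, 8.67 and 9.28 in CD29hiCD24+ arrays A to E, against 7.29, 7.88, 8.40, 8.15 and 8.17 in CD29+CD24+ arrays. Every CD29hiCD24+ value lay above every CD29+CD24+ value, and within the 5 tumours the difference ran from 0.52 to 1.56. In normal glands it had 9.11, 9.84 and 9.66 in CD29hiCD24+ arrays F to H, against 8.38, 7.57 and 7.64 in CD29+CD24+ arrays, again with no overlap. The gate difference was 0.99 ± 0.22 in tumours (adjusted p = 0.0120) and 1.67 ± 0.28 in normal glands (adjusted p = 4.44e-05). The tumour call was lost without tumour B (adjusted p = 0.0710), when only these groups were fitted (0.0626) and by a second Itga3 probe set with far less signal (0.57, adjusted p = 0.135). Itga3 was also higher in CD29hiCD24+ than in Lin- cells, by 1.01 ± 0.22 in tumours (adjusted p = 0.00533, and 0.0641 without tumour E) and 1.16 ± 0.28 in normal glands (0.00219). The second probe set gave 0.54 ± 0.21 for the tumour difference (adjusted p = 0.137). Between tumour and normal CD29hiCD24+ cells Itga3 differed by -0.56 ± 0.25 (adjusted p = 0.0810), and by -0.78 without pool F (0.0308), with overlapping groups. It was called lower there by the second probe set (-0.74 ± 0.24, adjusted p = 0.0226) and by the mean of its probe sets (-0.65, 0.0295). Itga3 was not called between tumour and normal in CD29+CD24+ (0.12 ± 0.25, adjusted p = 0.759) or Lin- cells (-0.41 ± 0.25, 0.206).

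Itga6 (chr2:71786886-71858427), the alpha6 chain shared by alpha6beta1 and the hemidesmosomal alpha6beta4, had the flattest profile of the 9 genes. Its group means ran only from 12.56 in tumour Lin- to 13.16 in normal CD29hiCD24+ arrays. It was called in 2 comparisons, both in normal glands: CD29hiCD24+ cells had 13.02 to 13.32, against 12.59 to 12.73 in CD29+CD24+ cells (0.51 ± 0.13, adjusted p = 0.00308) and 12.64 to 12.84 in Lin- cells (0.42 ± 0.13, 0.0143). Both calls were lost without pool H (adjusted p = 0.0720 and 0.144), and the second also without pool F (0.0647). In tumours CD29hiCD24+ cells differed by 0.10 ± 0.10 from CD29+CD24+ cells (adjusted p = 0.699) and by 0.32 ± 0.10 from Lin- cells (0.0536, and 0.0194 with the tumour as a block). A second Itga6 probe set of like strength, 1422444_at, gave another picture. It had 12.84 ± 0.13 in tumour CD29hiCD24+ arrays, against 12.12 ± 0.33 in normal ones (SD, n = 5 and 3), a difference of 0.72 ± 0.20 (adjusted p = 0.00704), where the first gave -0.27 ± 0.12 (0.0791). The p-values of single probe sets are adjusted over the 24278 probe sets kept. In CD29+CD24+ cells 1422444_at was higher in tumours as well (0.65 ± 0.20, adjusted p = 0.0119). By this probe set neither normal difference was called (0.29 ± 0.22 from CD29+CD24+ cells, adjusted p = 0.329, and 0.36 ± 0.22 from Lin- cells, 0.233). Tumour CD29hiCD24+ cells were called higher than tumour Lin- cells by it (0.72 ± 0.17, adjusted p = 0.0142). The direction for Itga6 between tumour and normal cells, and its calls between populations, thus depend on the probe set.

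Itgb4 (chr11:115974725-116008412), the beta4 chain that makes alpha6 an anchor of the hemidesmosome, was higher in tumours in all 3 populations. In CD29hiCD24+ cells it had 10.82, 10.63, 10.13, 10.10 and 10.14 in tumours A to E, against 6.63, 7.06 and 7.32 in pools F to H. In CD29+CD24+ cells it had 9.27, 9.58, 8.79, 8.39 and 9.28 in tumours, against 7.04, 6.01 and 6.54 in pools. No tumour array overlapped a normal one in these populations or in Lin- cells, where tumours had 8.31 to 9.57 and pools 5.77 to 6.90. The differences were 3.36 ± 0.33 in CD29hiCD24+ (a 10.3-fold difference, adjusted p = 1.16e-07), 2.53 ± 0.33 in CD29+CD24+ (2.75e-06) and 2.47 ± 0.33 in Lin- cells (4.81e-06). Only 1.79% of the genes tested had a higher tumour minus normal difference than Itgb4 in CD29hiCD24+ cells. Itgb4 also separated the gates within tumours, where CD29hiCD24+ cells exceeded CD29+CD24+ cells by 1.30 ± 0.29 (adjusted p = 0.0140) and Lin- cells by 1.43 ± 0.29 (0.00361). Each of the 5 tumours had this direction, with differences from CD29+CD24+ cells of 0.86 to 1.71. The first of these calls was lost without tumour A (adjusted p = 0.0544) or tumour C (0.0545). In normal glands the same differences were 0.47 ± 0.37 (adjusted p = 0.335) and 0.54 ± 0.37 (0.278), and pool F had less Itgb4 in CD29hiCD24+ than in CD29+CD24+ cells. With actin 3' minus 5' signal as a covariate the normal differences were 1.25 (adjusted p = 0.00859) and 0.88 (0.0255). The difference between the tumour and the normal gate difference was not called (0.83 ± 0.47, adjusted p = 0.169). Itgb4 has 1 probe set on these arrays.

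Col17a1 (chr19:47646341-47692042), the transmembrane collagen of the hemidesmosome, had the widest range of the 9 genes. In CD29hiCD24+ cells it had 14.53, 14.15, 13.94, 14.20 and 14.32 in tumours A to E, against 12.80, 12.74 and 12.90 in pools F to H, a difference of 1.42 ± 0.44 (adjusted p = 0.0138). In CD29+CD24+ cells it had 13.48, 13.71, 13.46, 13.28 and 14.00 in tumours, against 2.38, 2.52 and 2.45 in pools. All 3 normal values lay in the low band, so the fitted difference of 11.14 ± 0.44 (adjusted p = 4.02e-14) is not exact. With these arrays set to the limit of that band, the tumour signal was higher by at least 10.76 log2 units. In Lin- cells tumours had 13.36, 13.57, 13.32, 13.00 and 13.39, against 7.00, 10.22 and 10.02 in pools (4.25 ± 0.44, adjusted p = 1.32e-07). The low value is that of pool F, whose Lin- array also had the lowest basal marker mean of its group (7.70, with the other pools at 10.4 and 10.7). The part of basal cell content in this spread was not tested. Within tumours CD29hiCD24+ cells exceeded CD29+CD24+ cells by 0.33 to 1.05, in 5 of 5 tumours (0.64 ± 0.38, adjusted p = 0.377). The standard error pools the spread of all 6 groups, with SDs of 0.22 and 0.28 in these tumour groups but 1.80 in normal Lin- arrays. Without the arrays of pool F this difference, of the same size, was called (adjusted p = 0.0161). Within normal glands the same difference was 10.22 to 10.45 in the 3 pools (10.36 ± 0.49, adjusted p = 8.18e-13). With the low-band arrays at the limit it was at least 9.98. Against Lin- cells CD29hiCD24+ cells had 0.90 ± 0.38 more in tumours, in 5 of 5 (adjusted p = 0.153), and 3.74 ± 0.49 more in normal glands (5.63e-06). The tumour difference from Lin- cells was called when only these groups were fitted and without pool F.

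Dst (chr1:33907888-34308662), the plakin gene, was measured by 4 probe sets that split into pairs. The probe set with the highest mean, 1421117_at, stands for the gene in the tests. In CD29hiCD24+ cells it had 12.64, 11.51, 11.46, 11.93 and 12.65 in tumours A to E, against 12.13, 11.42 and 11.79 in pools F to H, with overlapping groups (0.26 ± 0.34, adjusted p = 0.589). In CD29+CD24+ cells it had 11.41, 10.78, 10.71, 10.95 and 11.59 in tumours, against 7.06, 7.67 and 7.21 in pools (3.78 ± 0.34, adjusted p = 1.23e-08). In Lin- cells tumours had 10.35 to 11.09, against 8.06 to 9.75 in pools (1.70 ± 0.34, adjusted p = 0.000384). The gate difference between CD29hiCD24+ and CD29+CD24+ cells was 0.95 ± 0.29 in tumours (adjusted p = 0.0715, and 0.0127 with the tumour as a block) and 4.47 ± 0.38 in normal glands (adjusted p = 6.24e-09). Against Lin- cells CD29hiCD24+ cells had 1.29 ± 0.29 more in tumours (adjusted p = 0.00826; 0.0531 without tumour E) and 2.74 ± 0.38 more in normal glands (1.05e-05).

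The other probe set that the platform annotation ties to the same transcript, 1450119_at, was likewise lowest in normal CD29+CD24+ arrays, with smaller differences. Its gate difference was 0.62 ± 0.32 in tumours (adjusted p = 0.295) and 2.34 ± 0.41 in normal glands (8.57e-05). The remaining pair, 1423626_at and 1421276_a_at, barely differed between gates and was lower in tumours everywhere. For 1423626_at the mean was 8.85 ± 0.55 in tumour and 12.04 ± 0.18 in normal CD29hiCD24+ arrays, 9.20 ± 0.28 and 11.79 ± 0.21 in CD29+CD24+ arrays, and 8.84 ± 0.42 and 11.72 ± 0.26 in Lin- arrays (SD, n = 5 and 3). The tumour minus normal difference of 1423626_at was -3.19 ± 0.27 in CD29hiCD24+ (adjusted p = 1.05e-08), -2.58 ± 0.27 in CD29+CD24+ (1.07e-07) and -2.87 ± 0.27 in Lin- cells (3.50e-08). For 1421276_a_at it was -3.24 ± 0.26, -2.35 ± 0.26 and -3.00 ± 0.26 in the same order (adjusted p = 4.67e-09, 2.36e-07 and 1.12e-08). No gate difference of this pair was called in tumours or normal glands. The platform annotation ties 1421276_a_at to another transcript listed for Dst, and 1423626_at to a sequence not listed among its transcripts. Dst is known to be transcribed into an epithelial form and longer forms in other tissues, from several starts, of which the windows printed above are 2. Which form each probe set reads was not settled here, and the mean of the 4 probe sets gave a tumour minus normal difference of -1.56 in CD29hiCD24+ cells (adjusted p = 1.34e-06), 0.12 in CD29+CD24+ cells (0.651) and -0.78 in Lin- cells (0.00197).

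**Figure D2:**
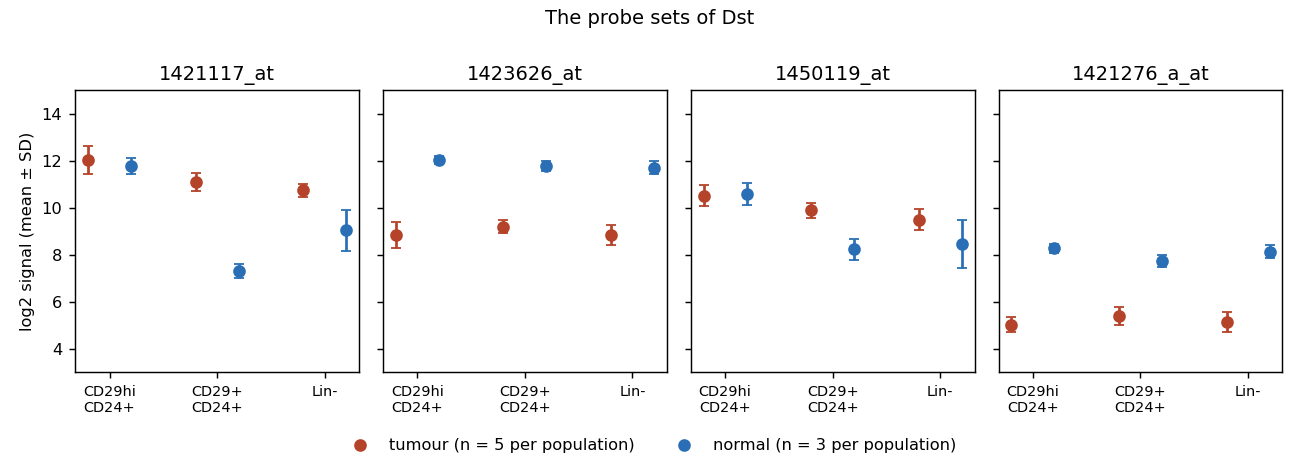
Mean log2 signal (y axis) of the 4 Dst probe sets by population (x axis), with tumours (n = 5) left of normal pools (n = 3); bars are standard deviations over arrays. Probe sets 1421117_at and 1450119_at are low in normal CD29+CD24+ arrays, while 1423626_at and 1421276_a_at are lower in tumours in all 3 populations.

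Lama3, on chromosome 18, encodes the alpha chain of laminin-332. In CD29hiCD24+ cells it had 12.67, 12.74, 12.75, 12.31 and 11.94 in tumours A to E, against 11.64, 11.47 and 11.86 in pools F to H. The groups did not overlap, as for 37% of all genes in this comparison, but the difference was not called (0.82 ± 0.49, adjusted p = 0.203; 0.0181 when only these groups were fitted). In CD29+CD24+ cells it had 11.24, 12.45, 12.96, 11.80 and 11.37 in tumours, against 4.74, 4.10 and 3.71 in pools (7.78 ± 0.49, adjusted p = 5.93e-11). In Lin- cells tumours had 10.70 to 12.82, against 6.98 to 9.37 in pools (3.52 ± 0.49, adjusted p = 7.81e-06). CD29hiCD24+ cells differed from CD29+CD24+ cells by 0.51 ± 0.43 in tumours (adjusted p = 0.579) and by 7.47 ± 0.55 in normal glands (8.35e-10). Tumour C alone had slightly less Lama3 in CD29hiCD24+ than in CD29+CD24+ cells. A second probe set, 1444860_at, stayed at the edge of the low band in every group, so that the mean of both gave smaller differences (3.92 between tumour and normal CD29+CD24+ cells).

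Lamb3 (chr1:193294353-193343878), the beta chain of the same laminin, had 12.73, 12.55, 12.45, 12.15 and 12.43 in tumour CD29hiCD24+ arrays A to E, against 11.32, 11.30 and 11.75 in pools F to H (1.01 ± 0.30, adjusted p = 0.0113). In CD29+CD24+ cells it had 11.51, 12.10, 12.01, 11.04 and 11.86 in tumours, against 7.35, 6.68 and 6.29 in pools (4.93 ± 0.30, adjusted p = 3.31e-11). Tumour Lin- arrays had 11.20 to 12.06, against 7.74 to 9.10 in pools (3.07 ± 0.30, adjusted p = 6.74e-08). The gate difference between CD29hiCD24+ and CD29+CD24+ cells was 0.76 ± 0.26 in tumours, higher in 5 of 5 and without overlap (adjusted p = 0.101, and 0.0342 with the tumour as a block), and 4.68 ± 0.34 in normal glands (5.42e-10). Lama3 and Lamb3 thus had the same order of all 6 group means. Col17a1 had this order as well, and for each of these genes some neighbouring groups overlapped.

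Lama5 (chr2:180176373-180225904), the alpha chain of laminin-511, was lower in tumours in all 3 populations. In CD29hiCD24+ cells it had 8.06, 7.51, 7.51, 8.13 and 7.52 in tumours A to E, against 8.46, 9.26 and 9.09 in pools F to H. In CD29+CD24+ cells it had 8.09, 8.08, 7.27, 7.93 and 7.49 in tumours, against 9.69, 9.53 and 9.26 in pools. In Lin- cells it had 7.54, 7.61, 6.98, 7.64 and 6.33 in tumours, against 10.12, 9.61 and 9.80 in pools. No tumour array reached a normal one in these 3 populations. The differences were -1.19 ± 0.29 in CD29hiCD24+ (a fall of 2.29-fold, adjusted p = 0.00223), -1.72 ± 0.29 in CD29+CD24+ (4.43e-05) and -2.62 ± 0.29 in Lin- cells (2.80e-07). A weak probe set, 1459614_at, with group means of 3.04 to 3.29, gave no call (-0.18, -0.21 and -0.20). Lama5 did not follow the basal gate. In normal glands CD29hiCD24+ cells had -0.56 ± 0.32 relative to CD29+CD24+ cells (adjusted p = 0.167) and -0.90 ± 0.32 relative to Lin- cells (0.0283). The latter call was lost without pool F (adjusted p = 0.373) or pool H (0.0793). It was also lost by the mean of the Lama5 probe sets and by 1427009_at (-0.81 ± 0.38, adjusted p = 0.112). In tumours the same differences were -0.03 ± 0.25 (adjusted p = 0.995) and 0.53 ± 0.25 (0.209).

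Counted together, 3 of the 9 genes were called higher in tumour than in normal CD29hiCD24+ cells (Itgb4, Col17a1 and Lamb3) and 1 lower (Lama5). Of all genes tested, 15.6% were called higher and 22.9% lower in this comparison, 38.6% in all, so the count of 4 called is near the background. In this comparison 5 of the 9 (these 4 and Lama3) had tumour and normal arrays that did not overlap, against 37% of all genes. In CD29+CD24+ cells 5 were higher (Itgb4, Col17a1, Dst, Lama3 and Lamb3) and 1 lower (Lama5), against 16.4% and 27.1% of all genes, 43.5% in all. The Lin- cells gave the same genes and directions, against 13.9% higher and 26.6% lower, 40.6% in all. Dst is counted by probe set 1421117_at, whereas 1423626_at and 1421276_a_at were called lower in tumours in both populations. In both of these populations the 6 called genes were also those whose tumour and normal arrays did not overlap, against 44.8% of all genes in CD29+CD24+ and 38.7% in Lin- cells. The median difference of the 9 genes was 0.40 in CD29hiCD24+, 2.53 in CD29+CD24+ and 1.70 in Lin- cells, and that of all genes -0.01, -0.01 and -0.08. With the ranges of description numbers as a block, each of these calls held with its direction, although the tumour level then rests on tumour E alone. Tumour E, which shares its range with the pools, lay on the same side of them as the other tumours for each called gene. Beside these results, keratinocyte markers were also higher in tumours (3 of 6 tested in CD29hiCD24+, 5 of 6 in CD29+CD24+ and 6 of 6 in Lin- cells). Their array means were 8.03 to 9.95 in tumour and 4.44 to 5.51 in normal CD29hiCD24+ arrays, 9.57 to 12.6 and 6.46 to 6.67 in CD29+CD24+ arrays, and 11.6 to 13.8 and 6.40 to 6.86 in Lin- arrays. Luminal markers were lower in tumours (4, 7 and 6 of 7 tested), with means of 8.93 to 10.2 in tumour and 9.91 to 12.4 in normal CD29hiCD24+ arrays, 10.1 to 12.7 and 13.9 to 14.0 in CD29+CD24+ arrays, and 9.40 to 11.7 and 13.5 to 14.0 in Lin- arrays. The part of these markers' cells in the results was not tested. Leukocyte, fibroblast and Schwann markers were called in 0 of 8, 0 of 6 and 0 of 2 tested in CD29hiCD24+ cells, with leukocyte means of 3.58 to 4.96 in tumours against 2.80 to 7.38 in pools, fibroblast means of 5.14 to 6.71 against 6.01 to 7.29, and Schwann means of 5.51 to 7.25 against 6.23 to 6.57. Of 4 pericyte markers tested there, 1 was higher and 3 lower in tumours (means of 4.39 to 5.97 against 6.62 to 7.04), and all 7 endothelial markers were lower. The median difference of the 9 genes was largest in CD29+CD24+ cells. In that population 4 of 8 basal, 3 of 6 fibroblast, 1 of 4 pericyte and 1 of 2 Schwann markers were called higher in tumours. Of 7 endothelial markers 0 were called there. Fibroblast means there were 4.84 to 6.99 in tumours against 3.62 to 3.92 in pools. In Lin- cells 4 of 8 basal markers were higher and 4 lower in tumours. Their part was not tested either.

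**Figure D3:**
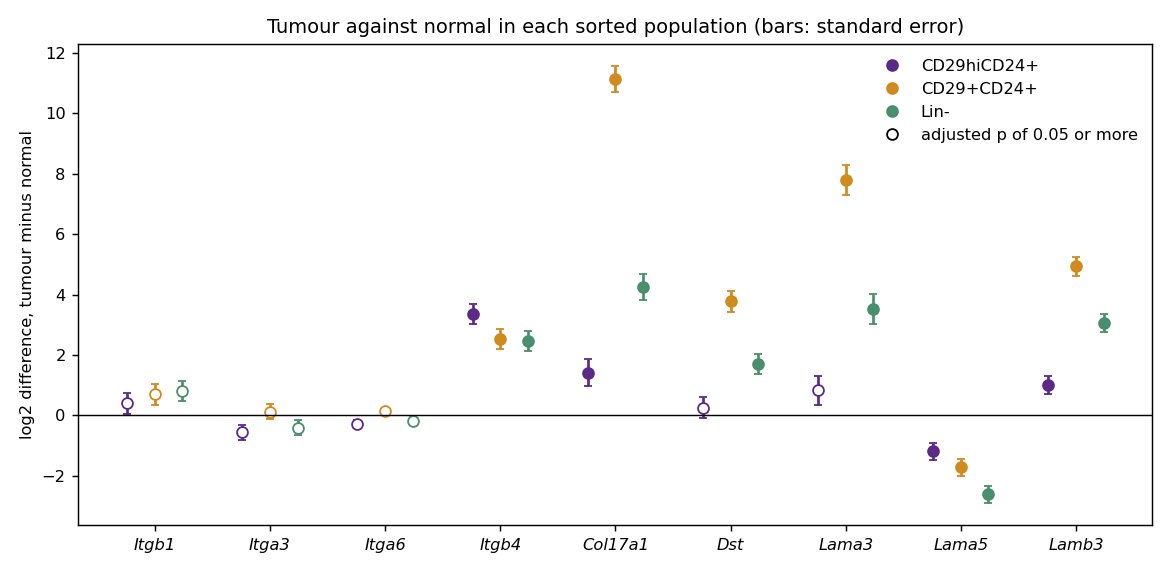
Tumour minus normal log2 difference (axis) of each of the 9 genes in the 3 populations, with bars of 1 standard error and filled points where the adjusted p is under 0.05. Itgb4 is higher and Lama5 lower in tumours in all 3 populations. Col17a1, Lama3, Lamb3 and Dst (by probe set 1421117_at) differ most in CD29+CD24+ cells. By 1423626_at and 1421276_a_at Dst is lower in tumours and differs least in CD29+CD24+ cells (-2.58 and -2.35).

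Between the gates of tumours, 2 of the 9 genes were higher in CD29hiCD24+ than in CD29+CD24+ cells (Itga3 and Itgb4) and 0 lower, against 2.25% and 1.94% of all genes, 4.19% in all. For 3 of the 9 (Itga3, Itgb4 and Lamb3) these gates did not overlap in tumours, against 5.05% of all genes. With the tumour as a block, 4 were higher (Dst and Lamb3 joined them), against 6.71% higher and 13.5% called in all over the genes tested in that fit. Against Lin- cells 3 were higher (Itga3, Itgb4 and Dst), against 3.74% higher and 8.36% called in all over the genes tested, and 6 with the block (adding Itgb1, Itga6 and Lamb3), against 8.34% higher and 17.8% in all. Dst is counted in this paragraph by probe set 1421117_at. Without the block, its other probe sets gave no call against Lin- cells. These were 1450119_at (1.02, adjusted p = 0.0593), 1423626_at (0.00886, 0.995) and 1421276_a_at (-0.10, 0.898). Between the CD29hiCD24+ and CD29+CD24+ gates of tumours the alpha3 and beta4 integrin chains were thus called, each call being lost in some alternatives. Their partner chains Itgb1 and Itga6 and the laminin-332 chain Lama3 were not called, and Lamb3 was called with the block only. In the comparison with CD29+CD24+ cells, basal markers were higher in 2 of 8, pericyte markers in 1 of 4, and fibroblast and endothelial markers in 0 of 6 and 0 of 7. Luminal markers were lower in 1 of 7 there and in 1 of 7 against Lin- cells. Keratinocyte markers were lower in 3 of 6 there and in 5 of 6 against Lin- cells. Also against Lin- cells, all 6 fibroblast markers were lower in the CD29hiCD24+ gate (means of 5.14 to 6.71 against 7.04 to 11.4), as were 1 of 7 endothelial and 2 of 4 pericyte markers, with 1 pericyte marker higher and 0 of 8 basal markers called. The part of these markers' cells was not tested.

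Between the gates of normal glands, 6 of the 9 genes were higher in CD29hiCD24+ than in CD29+CD24+ cells and 0 were lower, against 21.3% and 25.3% of all genes, 46.6% in all. The 6 were Col17a1, Lama3, Lamb3, Dst, Itga3 and Itga6. These 6 and Itgb1 did not overlap between the gates, against 58.2% of all genes. Against Lin- cells 7 were higher (the same 6 and Itgb1) and Lama5 was lower, against 17% and 23.2% of all genes, 40.2% in all. In both comparisons Itga6 was not called by probe set 1422444_at, nor Dst by 1423626_at and 1421276_a_at. Against Lin- cells the Itgb1 groups overlapped. Of its other probe sets 1426920_x_at was called there (0.51, adjusted p = 0.0217). Not called were 1452545_a_at (1.29, 0.0600), 1427771_x_at (0.88, 0.0738) and 1426919_at (0.41, 0.242). Lama5 was not called there by 1427009_at (-0.81, adjusted p = 0.112). In the same comparison with CD29+CD24+ cells all 8 basal markers were higher, as were all 7 endothelial markers tested, 4 of 6 fibroblast markers (array means of 6.01 to 7.29 in the CD29hiCD24+ gate, against 3.62 to 3.92) and 3 of 4 pericyte markers (6.62 to 7.04 against 2.70 to 3.05). Also against CD29+CD24+ cells, 1 of 2 Schwann markers was higher, and 4 of 7 luminal and 2 of 6 keratinocyte markers were lower. Against Lin- cells 7 of 8 basal, 5 of 7 endothelial, 1 of 4 pericyte and 1 of 2 Schwann markers were higher. In that comparison 3 of 6 fibroblast, 4 of 7 luminal and 2 of 6 keratinocyte markers were lower. Endothelial cells and pericytes also lie on basement membranes, and the part of all these markers' cells was not tested. In pool F, where endothelial and leukocyte markers were highest, the difference from CD29+CD24+ cells was 10.42 for Col17a1, 6.90 for Lama3, 3.97 for Lamb3 and 5.07 for Dst. In pools G and H, which had less of these markers, it was 10.22 and 10.45 for Col17a1, 7.37 and 8.15 for Lama3, 4.62 and 5.46 for Lamb3, and 3.75 and 4.58 for Dst.

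The gate difference itself was set against that of normal glands in 1 fit. It was smaller in tumours for 4 of the 9 genes: Col17a1 (by -9.72 ± 0.62, adjusted p = 2.19e-10, and by -9.34 with the low-band arrays at the limit), Lama3 (-6.96 ± 0.70, 1.65e-07), Lamb3 (-3.92 ± 0.43, 4.55e-07) and Dst (-3.52 ± 0.48, 8.14e-06). Of all genes 19.8% were called lower and 22.2% higher in this test, 42% in all. For these 4 genes the mean of tumour CD29+CD24+ arrays lay within 0.95 log2 units of that of tumour CD29hiCD24+ arrays. The Dst call held by 1450119_at (-1.72 ± 0.52, adjusted p = 0.0120) but not by 1423626_at (-0.61 ± 0.38, 0.221) or 1421276_a_at (-0.89 ± 0.36, 0.0586). Itgb1 (-0.30 ± 0.48, adjusted p = 0.669), Itga3 (-0.68 ± 0.35, 0.130), Itgb4 (0.83 ± 0.47, 0.169) and Lama5 (0.53 ± 0.40, 0.317) were not called. Itgb1 was called with the actin covariate (-1.32, adjusted p = 0.00440), and Itga3 without pool F (-1.15, 0.0245). Itga6 had -0.41 ± 0.17 (adjusted p = 0.0517, and 0.0278 with the tumour or pool as a block). All 8 basal markers moved the same way as these 4 genes (median -8.23), as did all 7 endothelial markers tested (median -4.84). So did 4 of 6 fibroblast (median -3.98), 3 of 4 pericyte (median -4.47) and 1 of 2 Schwann markers. The other way went 2 of 7 luminal and 1 of 4 pericyte markers. Of 6 keratinocyte markers 2 were called lower and 2 higher. The part of all these markers' cells was not tested.

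**Figure D4:**
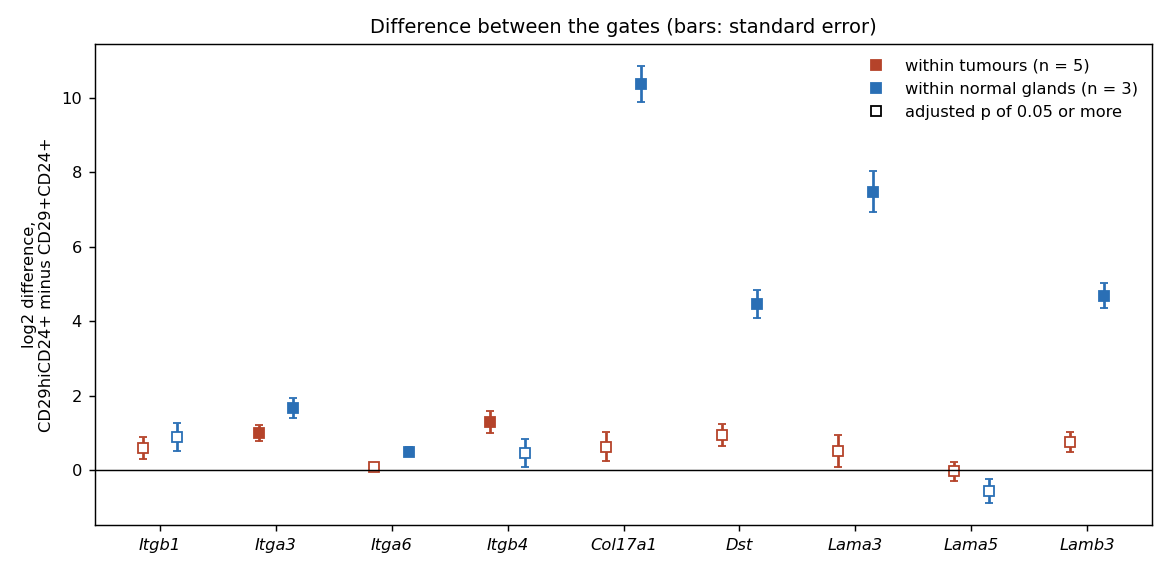
CD29hiCD24+ minus CD29+CD24+ log2 difference (y axis) of each of the 9 genes (x axis), with tumours (n = 5) left of normal glands (n = 3); squares are fitted differences, filled where the adjusted p is under 0.05, and bars are standard errors. Col17a1 is at 0.64 in tumours and 10.36 in normal glands (a fitted value against arrays in the low band), and only Itga3 and Itgb4 of the 9 are filled in tumours.

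Genes that act beside these 9 were counted from lists. Of other laminin chains, 1 of 6 tested was higher in tumour than in normal CD29hiCD24+ cells and 4 lower. Lama4, the alpha chain of vascular laminins, was higher (1.68 ± 0.26, adjusted p = 3.73e-05). Lama1, an alpha chain of early embryonic laminin, was lower (-2.91 ± 0.85, 0.00948), as were the gamma chain Lamc1 (-2.46 ± 0.59, 0.00223) and the beta chain Lamb1 (-1.36 ± 0.43, 0.0152). The call for Lama1 was lost without pool H (adjusted p = 0.0609), and that for Lamb1 without pool F (0.0711) and with the actin covariate (-0.88, 0.0818). Between the tumour gates 0 of 6 were called. Between the normal gates 4 of 6 were higher in CD29hiCD24+ than in CD29+CD24+ cells and 0 lower: Lamb1 (7.30 ± 0.48, adjusted p = 1.23e-10), Lama1 (5.71 ± 0.95, 4.34e-05, and at least 5.57 above the low band), Lama4 (4.24 ± 0.30, 3.40e-10) and Lamc1 (2.79 ± 0.66, 0.00143).

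Among other integrin subunits, 2 of 13 tested were higher and 7 lower in tumour CD29hiCD24+ cells. Itgb6, the beta chain of an epithelial fibronectin and latent TGF-beta receptor, averaged 8.61 in tumours against 3.45 in pools (5.16 ± 0.63, adjusted p = 1.95e-06). Itgb8, another beta chain that binds latent TGF-beta, was higher by 0.92 ± 0.30 (adjusted p = 0.0196), with overlapping groups. This call was lost with the description-number block (0.57, adjusted p = 0.208), with the actin covariate, when only these groups were fitted, and without tumour A or D or pool F or G (0.0548 to 0.0805). Itga9, a tenascin receptor chain, was lower (-5.16 ± 0.61, 1.16e-06), and Itgb3, of the vitronectin receptor, averaged 1.96 in tumours, in the low band, against 6.75 in pools (-4.78 ± 0.75, 3.54e-05, and -3.92 from the limit of that band). No subunit of the 13 was called between tumour gates. In normal glands 7 of 13 were higher in CD29hiCD24+ than in CD29+CD24+ cells and 1 lower. Itga9 (5.26 ± 0.68, adjusted p = 2.17e-06) and Itga8 (4.81 ± 0.73, 1.45e-05) led, Itga10 differed by 0.58 ± 0.20 (0.0222) and Itgb6 fell by 2.99 (SE 0.71, adjusted p = 0.00146). The CD29+CD24+ mean of Itga10 lay in the low band, and its call was lost without pool F (0.30, adjusted p = 0.326) and with the actin covariate (0.0815, 0.743).

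Of the basement membrane core genes, 1 of 16 tested was higher and 9 lower in tumour CD29hiCD24+ cells, led by Fbln1, a fibulin (4.36 ± 0.52, adjusted p = 1.53e-06), at one end and by the nidogen Nid1 (-4.63 ± 0.92, 0.000426) and Frem2 (-3.86 ± 1.01, 0.00459) at the other. The second nidogen, Nid2, had the smallest of the 9 falls (-0.64 ± 0.21, adjusted p = 0.0200), with all tumour arrays in the low band. Without the CD29hiCD24+ array of pool F it was -0.23 (adjusted p = 0.296), no longer called. Between tumour gates 0 of 16 were called. In normal glands 12 of 16 were higher in CD29hiCD24+ than in CD29+CD24+ cells and 1 lower. Sparc, a collagen-binding matrix protein (10.44 ± 0.48, adjusted p = 5.73e-13, and at least 10.09 above the low band), and the collagen IV chain Col4a2 (8.99 ± 0.68, 1.05e-09) were highest. Nid2 differed by 0.65 ± 0.24 (adjusted p = 0.0283) and Npnt, a ligand of alpha8beta1, by -1.38 ± 0.41 (0.00843). Neither call held in all pools, since Nid2 was at 0.23 without pool F (adjusted p = 0.450) and Npnt at -0.74 without pool G (0.175).

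Of 21 adhesion linkers tested, which join integrins to the cytoskeleton, 3 were higher and 12 lower in tumour CD29hiCD24+ cells. Among the tensins Tns4 (3.49 ± 0.32, adjusted p = 3.27e-08) and Tns3 (1.31 ± 0.46, 0.0281) were higher and Tns1 was lower (-4.32 ± 0.34, 3.80e-09), with the kindlin Fermt2 (-3.51 ± 0.43, 1.84e-06). The call for Tns3 was lost by the mean of its probe sets (0.0177, adjusted p = 0.974), with the description-number block (0.85, 0.163), with the actin covariate (0.0504), without tumour A or B or pool H (0.0515 to 0.0616) and without the CD29hiCD24+ array of pool F (0.103). Plec, the plectin that binds beta4 to keratin, was the third gene that was higher, with 11.41 to 12.12 in tumour against 10.67 to 10.99 in normal CD29hiCD24+ arrays (0.83 ± 0.20, adjusted p = 0.00219). In tumours 4 of 21 were higher in the CD29hiCD24+ gate: Cav1 (0.92 ± 0.17, adjusted p = 0.00499), Rsu1 (0.88 ± 0.23, 0.0365), Actn1 (0.64 ± 0.12, 0.00378) and Tln1 (0.63 ± 0.18, 0.0468). The calls for Rsu1 and Tln1 were lost without any one tumour or pool (adjusted p = 0.0520 to 0.105 and 0.0584 to 0.186) and by the mean of their probe sets (0.40 and 0.23). Talin (Tln1) and alpha-actinin (Actn1) carry force between beta1 integrins and actin. In normal glands 17 of 21 linkers were higher in CD29hiCD24+ than in CD29+CD24+ cells, with Tns3 (4.89 ± 0.51, adjusted p = 1.33e-07) and Tns1 (4.63 ± 0.38, 3.46e-09) at the top and the tetraspanin Cd151, which binds laminin-receptor integrins, at 0.57 ± 0.15 (0.00477; 0.0839 without pool H). Of the linkers Plec alone was lower there (-1.07 ± 0.22, adjusted p = 0.000453). Among other hemidesmosome genes, Col17a1 was higher there, and so was Dst by 1421117_at and 1450119_at but not by 1423626_at and 1421276_a_at. Itgb4 was not called there (0.47 ± 0.37, adjusted p = 0.335). The median difference over each list in the normal gates was 3.51 for the laminin chains, 1.96 for the integrin subunits, 2.65 for the basement membrane core and 1.42 for the linkers, against 1.67 for the 9 genes and -0.03 for all genes.

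**Figure D5:**
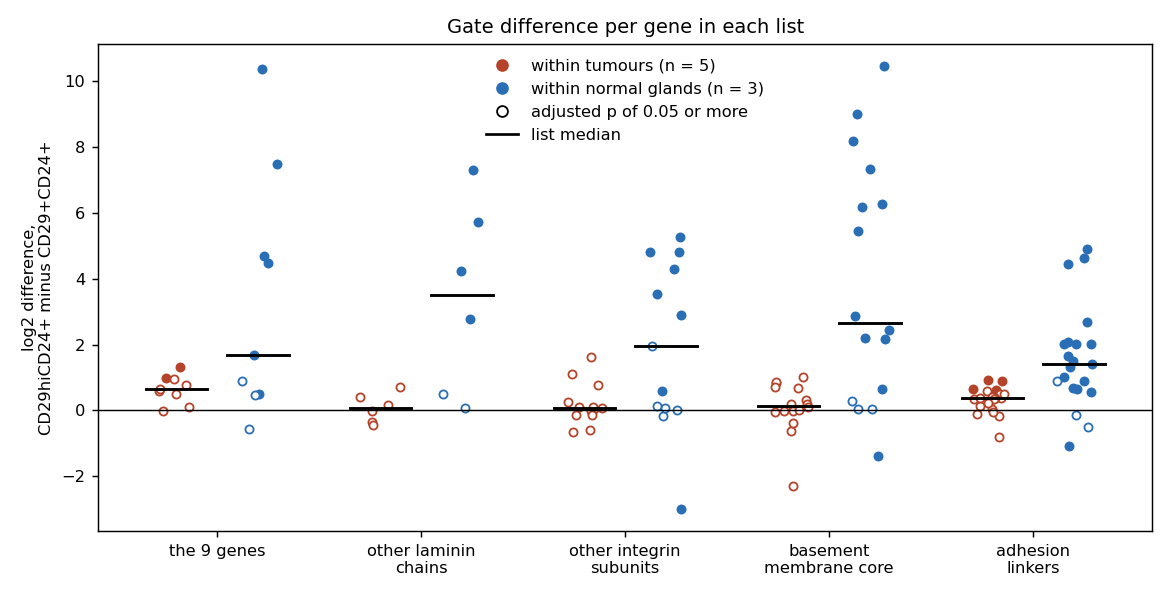
Log2 difference between CD29hiCD24+ and CD29+CD24+ cells (y axis) of every tested gene of the 9 and of the 4 lists (x axis), with tumours left of normal glands; each point is a gene, filled where the adjusted p is under 0.05, and lines are list medians. Fitted normal values reach 10.44 (Sparc), and in tumours 2 of the 9 genes and 4 linkers were called.

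By the root mean square difference over the 24 arrays, after each gene's own mean was taken off, Col17a1 was most like the basal keratin Krt5 (0.247, where the median over all genes was 3.87) and then Moxd1 (0.505). Krt5 averaged 14.26 in tumour and 12.86 in normal CD29hiCD24+ arrays, and 13.95 in tumour and 2.90 in normal CD29+CD24+ arrays. Itga3 was most like Actn1 (0.354) and Tln1 (0.357), with a median over all genes of 0.855. Itgb1 was nearest to Sgpl1 (0.409) and Aplp2 (0.411), and Itga6 to Ran (0.157) and Lsm14a (0.166). Itgb4 was nearest to Dut (0.521) and Krt73 (0.546), Dst to Gpr161 (0.387) and Igf1r (0.437), and Lama3 to Col18a1 (0.592) and Chst11 (0.595). Lama5 was nearest to Prkd1 (0.328) and Tecpr1 (0.357), and Lamb3 to Smpdl3b (0.426) and Wnt10a (0.473). Small values are easier to reach for genes that vary little, such as Itga6, and all arrays share their groups, so these are descriptions.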

How the data were processed

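The authors deposited a log2 signal per probe set for 24 Affymetrix arrays, already background-corrected, normalised and summarised. Per the submitters' processing notes, RMA, GCRMA and Partek were used; their versions and roles were not given in the sources used here. That values are log2 follows from their range (0.489 to 16.06). Groups came from the labels, and 2 titles of the third pool that carry no letter were taken as H. Per the platform annotation 34945 of 45101 probe sets had 1 gene symbol. Probe sets over 2.83, the 40th percentile, in at least 3 arrays were kept (24278, 21 of them of the 9 genes), and the one with the highest mean stood for its gene (13485 genes).

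limma 3.58.1 in R 4.3.3 fitted 6 group means (lmFit and contrasts.fit, then eBayes allowing a trend in variance) and gave 8 contrasts with Benjamini-Hochberg adjustment over all genes. The code was tested on simulated data. Where all arrays of a group lay in the low band, a bound was taken with them at its limit of 2.83. Arrays of a tumour come from the same animal. Their deviations from the group means correlated (median r 0.578 in 15 pairs, against -0.167 in 60 pairs from separate tumours), so the fit with tumour or pool as a block (duplicateCorrelation, consensus 0.321) is given beside results whose call it changes. For pools the median was 0.142 over 9 pairs, against -0.0705 over 18. The number of arrays limits the precision. Alternatives were quantile normalisation, no filter, the mean of all probe sets, the blocks, an actin covariate, no variance trend, only the groups compared, each probe set, and leaving out each tumour, pool or the CD29hiCD24+ array of pool F.

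The 9 genes, the 4 lists of related genes (laminin chains, integrin subunits, basement membrane core and adhesion linkers) and the marker lists (basal, luminal, endothelial, leukocyte, fibroblast, pericyte, Schwann and keratinocyte) were chosen with earlier results of these data known. From each related list the 2 highest and 2 lowest called genes were named in tumour against normal CD29hiCD24+ cells and in both gate comparisons; the tumour minus normal values of Plec were added after they were seen. For each of the 9 genes the 2 genes of nearest profile were named. Promoters are RefSeq sequences on GRCm38.p6.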

Additional observations from a re-analysis of the deposited data

Results flagged for a closer look

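For 4 of the 9 genes the difference between CD29hiCD24+ and CD29+CD24+ cells differed between tumours and normal glands by a test of the difference itself (limma, tumour minus normal), a share near the 42% of all genes called in that test. It was -9.72 ± 0.62 for Col17a1 (adjusted p = 2.19e-10), where the gate difference was 0.64 in tumours and 10.36 in normal glands, higher in 5 of 5 tumours and 3 of 3 pools. The normal CD29+CD24+ arrays of Col17a1 lay in the low band, so these fitted values are not exact, and with those arrays at the limit of the band the difference was -9.34. Lama3 had -6.96 ± 0.70 (adjusted p = 1.65e-07), from 0.51 in tumours, higher in 4 of 5, and 7.47 in normal glands, higher in 3 of 3. Lamb3 had -3.92 ± 0.43 (adjusted p = 4.55e-07), from 0.76 in tumours and 4.68 in normal glands, higher in 5 of 5 and 3 of 3. Dst had -3.52 ± 0.48 (adjusted p = 8.14e-06), from 0.95 in tumours and 4.47 in normal glands, higher in 5 of 5 and 3 of 3. These Dst values are those of probe set 1421117_at. Probe set 1450119_at gave -1.72 ± 0.52 (adjusted p = 0.0120), while 1423626_at (-0.61 ± 0.38, 0.221) and 1421276_a_at (-0.89 ± 0.36, 0.0586) gave no call. Among the 27 groups of 5 tumour arrays of the 9 genes, 0 held an array far from the others by Dixon's test.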

How the results depend on the processing

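Of 72 results (9 genes in 8 contrasts) 39 were called, and 29 of these kept sign and call in all 17 alternatives other than single probe sets. Between tumour gates 2 genes of the 9 and 565 of all genes were called; this became 4 and 1817 with the replicate block, 1263 of all genes with the description-number block, and 1 and 149 with only these groups fitted, and leaving out a replicate gave 1 to 4 and 207 to 565. Tumour CD29hiCD24+ against Lin- cells gave 3 and 1128, which became 6 and 2400 with the replicate block, 5 and 1876 with the description-number block, 5 and 465 with only these groups, and 5 of the 9 after quantile normalisation and with the actin covariate (2 to 5 and 469 to 1117 without a replicate). Normal CD29hiCD24+ against Lin- cells gave 5420 genes and 3491 to 5569 without a replicate, the lowest without pool F. The block changed no other call of the 9 genes than those given in the report.

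Signs turned as follows; the cause was not tested. The mean of all probe sets turned the tumour minus normal difference of Itga6 (0.22 in CD29hiCD24+, 0.0915 in Lin-), Dst (-1.56 and -0.78) and Itga3 (-0.0575 in CD29+CD24+). Probe set 1422444_at gave Itga6 0.72 in CD29hiCD24+, 0.36 in Lin- and 0.0710 for the difference of gate differences. Dst probe sets 1423626_at and 1421276_a_at gave -3.19 and -3.24 in CD29hiCD24+, -2.58 and -2.35 in CD29+CD24+, -2.87 and -3.00 in Lin- cells, and -0.35 and -0.36 between tumour gates, and 1421276_a_at gave -0.10 for tumour CD29hiCD24+ against Lin-; 1450119_at gave -0.0627 in CD29hiCD24+ cells. Itgb1 tumour minus normal in CD29hiCD24+ cells was -0.14 with the actin covariate, -0.12 by 1426920_x_at and -0.24 by 1426919_at, and in Lin- cells -0.0376 by 1426919_at; its difference of gate differences was 0.28 by 1427771_x_at. Itga3 tumour minus normal in CD29+CD24+ cells ran from -0.0300 (without replicate G) to 0.37 (without replicate F) and was -0.23 by 1421997_s_at. Lama5 between tumour gates was 0.0932 after quantile normalisation and 0.0240 by 1459614_at, and ran from -0.0936 (without replicate C) to 0.11 (without replicate B); it was 0.0380 by 1459614_at for normal CD29hiCD24+ against Lin-. Lama3 by 1444860_at, at the edge of the low band, was -0.0230 between tumour gates and -0.00070 between normal gates. Quantile normalisation moved the all-gene median of the difference of gate differences by 0.117.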
